A study of Mus musculus with 7 samples.

Results

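Dermis and epidermis of the back of wild-type mice were compared gene by gene in RNA-seq libraries of sorted skin cells. The comparison took every gene with at least 1 FPKM in either library, where FPKM is the number of sequenced fragments per kilobase of transcript, scaled by all fragments mapped. That kept 13899 of the 22552 gene symbols of the deposited table. Just inside this limit lay Gm17252 at 1.00 and 0.171 FPKM and Klre1 at 1.00 and 0.178 FPKM in dermis and epidermis, and just outside it lay A430035B10Rik at 0.998 and 0.492 FPKM and Prr5l at 0.996 and 0.391 FPKM. After 17 failed estimates were left out, 13882 genes were compared.

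The libraries hold total RNA of flow-sorted skin cells of Wt/Wt mice at postnatal day 50, with a strain label that names CD1 and C3H. Each layer had 1 library, so no difference has a replicate check, no p-value can be given, and variation between animals is not covered by any interval below. The labels name the cells as dorsal dermal and dorsal epidermal, and do not give the sort gates, the number of animals or their sex. Ear dermis and ear epidermis of Wt/Wt mice, and of Wt/Koa mice with 1 copy of the Koa allele, form another 2 such pairs of the same age and strain label; they share no library with the back and are set beside it as other sites, not as replicates.

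The epidermis is a sheet of keratinocytes that divide in its lowest layer and harden as they move outwards into a barrier. The dermis below it is a bed of collagen and elastic fibres made by fibroblasts, and holds vessels, nerves, muscle and immune cells. A basement membrane, to which both layers contribute proteins, joins them, and hair follicles and sebaceous glands are epidermal structures that reach deep into the dermis. The layers also signal to each other with secreted growth factors whose receptors often lie in the opposite layer.

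The marker genes followed the layer labels, with epidermal RNA present in the dermal library. All 10 fibroblast markers were higher in dermis, with an epidermal level that came to a median of 0.517% of the dermal one (0.309% for Dpt to 15.3% for Fbln1). All 8 basal keratinocyte markers were higher in epidermis, but their dermal level still came to a median of 37.7% of the epidermal one (26.5% for Krt14 to 47.6% for Itga6), and with equal totals 2 of the 8 were called. Krt14 and Krt5, the keratins of the dividing layer, stood at 1082 and 2377 FPKM in the dermal library against 4082 and 6878 FPKM in the epidermal one. In the ear the same 8 markers stood in dermis at a median of 7.16% in Wt/Wt and 10.7% in Wt/Koa mice. In bulk libraries such as these, fewer cells of a type and less RNA per cell cannot be told apart.

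Few genes of the epidermis stood lower than these markers in the dermal library. Short RNAs were left out here. Of 6660 genes at 10 FPKM or more in epidermis, 45 stood in dermis below 26.5% of their epidermal level, the lowest percentage of a basal marker. Of the same genes 0 stood under 10%. In the ear pairs 207 of 6784 and 49 of 6816 such genes stood under 10%. On the dermal side, 539 of 6810 genes at 10 FPKM or more in dermis stood in epidermis under 10% of their dermal level, and 195 under 1%.

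The depth recovered from the steps of low FPKM values was 32.3 M fragments (M stands for mega) for dermis and 31.6 M for epidermis, within a range of 31.6 to 40.3 M over the 6 libraries of the 3 pairs. Dermis had 13592 and epidermis 12128 genes at 1 FPKM or more, and 396 of 3411 genes compared between them (11.6%) stood at equal fragments. Col1a1, Col1a2 and Col3a1, the main fibrillar collagen chains of skin, are listed at 0 in the dermal library and at 19.6, 26.6 and 22.4 FPKM in the epidermal one. Col1a1 stands at 4362 FPKM in ear dermis of Wt/Wt mice. In the other ear values these genes lay on the epidermal side too. On the log2 scale used below, Col1a2 differed by -2.98 and -3.09 and Col3a1 by -3.13 and -2.89 in Wt/Wt and Wt/Koa ear. Col1a1 differed by -2.49 in Wt/Koa ear. The 3 zeros in dermis of the back were taken as failed estimates of very abundant genes. The 3 genes were treated as failed in the ear pairs as well, so the ear differences above are not read as layer differences. The dermal level of the main collagens is thus unknown here and the genes enter no count.

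Differences were taken as log2(FPKM + 1) in dermis minus epidermis, a scale that understates the difference of low genes. A gene is called higher in a layer below where this difference reached 1, about 2-fold. By this rule 2232 genes were higher in dermis, 16.1% of the 13882 compared, and 1142 were higher in epidermis, 8.23%. Together they made up 24.3%. The dermal differences were also wider. A difference of at least 3 towards dermis was seen in 585 genes and of at least 5 in 159. Towards epidermis, 63 genes differed by at least 2 and 26 by at least 3. All these counts include short RNAs, without which 2201 genes were higher in dermis and 1081 in epidermis. Among genes that are not short RNAs, at 10 FPKM or more in either library, the widest epidermal difference was -3.09, of Sprr4. The median difference of all genes was -0.14.

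How the libraries are scaled to each other changes the balance. Summed over genes that are not short RNAs, the deposited FPKM came to 508303 in dermis and 745625 in epidermis. Scaling both to the same total moved the median difference to 0.34 and left 2946 genes higher in dermis and 241 higher in epidermis, so that 92.4% of calls lay on the dermal side instead of 66.2%. Scaling by the median of ratios moved the median to 0.08 and left 2500 and 588 genes, a dermal share of 81.0%. The equal-total scaling multiplied epidermal values by 0.682, which removes epidermal calls that lie close to the rule. Each list below is read against the median of -0.14 of all genes, and its counts against 16.1% of all genes called higher in dermis and 8.23% in epidermis. Counts near these shares, as for barrier lipid, Wnt receptor and Hedgehog genes, tell nothing particular about the list. For lists with 2 or more epidermal calls the number left with equal totals is given where most were lost. Of the single epidermal calls named below, those of Col8a2, Hyal2, Crabp2, Fgf18, Fgfr3, Shh and Epcam were lost in the same way, and that of Sostdc1 among the Wnt inhibitors was not.

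**Figure D1:**
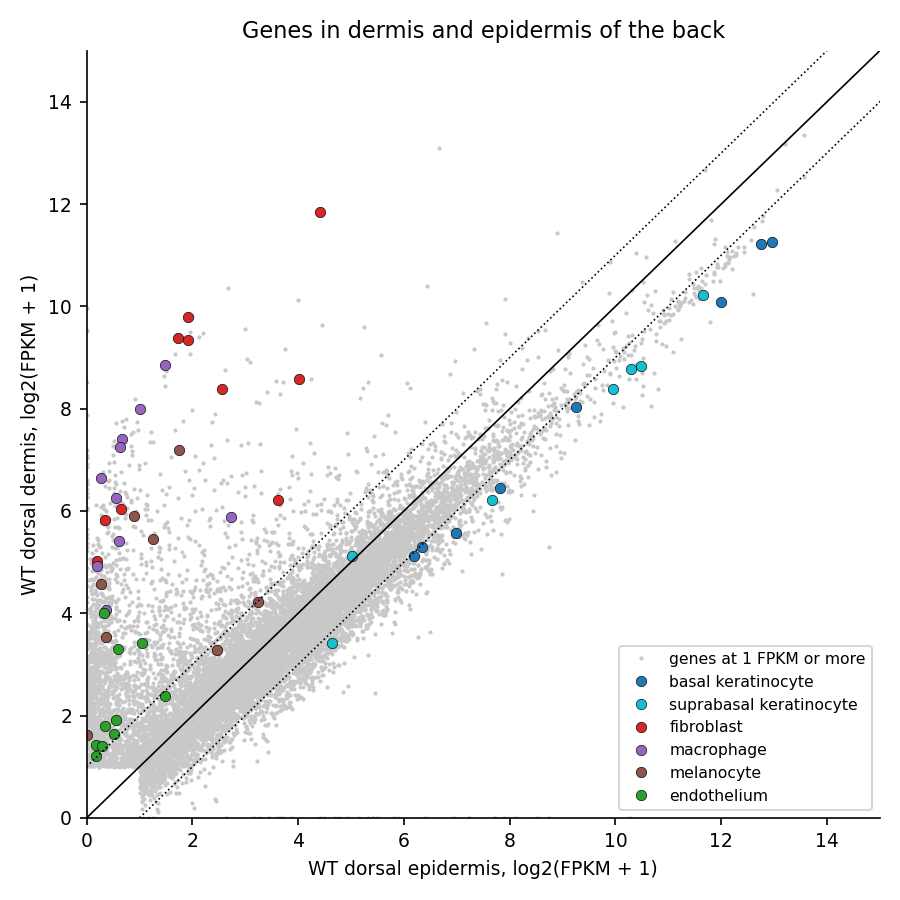
Level of each of the genes at 1 FPKM or more in dermis (vertical axis) against epidermis (horizontal axis) of WT back, both as log2(FPKM + 1), with marker genes of 6 cell types in colour; the solid line marks equal levels and the dotted lines a difference of 1. The 10 fibroblast markers lie above the upper dotted line and the 8 basal keratinocyte markers just below the lower one, at 26.5% to 47.6% of their epidermal level.

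The genes furthest apart towards dermis included several matrix proteins. By the naming rule these were the 12 genes with the widest differences at 10 FPKM or more in either library. Dpt, dermatopontin, a small matrix protein that binds decorin and helps collagen fibrils form, stood at 891 FPKM in dermis and 2.76 FPKM in epidermis, which is 323 times as much (95% interval of exact counting error, 273 to 388). The interval comes from estimated fragments and covers counting error alone. Dcn, decorin, the collagen-binding proteoglycan, had the highest level of the 12, at 3675 against 20.2 FPKM (ratio 182, 176 to 189). Ogn, osteoglycin, of the same proteoglycan family, stood at 289.9 against 0.878 FPKM (ratio 330.0, 259.8 to 429), and Lum, lumican, at 663 against 2.31 FPKM.

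The others of these 12 were of several kinds. Ctsk, cathepsin K, a collagen-degrading lysosomal protease, stood at 898 against 2.96 FPKM. Gpx3, the secreted glutathione peroxidase, stood at 1316 against 5.4 FPKM, and Aebp1, a collagen-binding matrix protein, at 718 against 2.87 FPKM. Clec3b, tetranectin, stood at 647 against 2.76 FPKM and Serpinf1, pigment epithelium-derived factor, at 536 against 2.2 FPKM. Serping1, the inhibitor of the first complement component, stood at 672 against 3.36 FPKM. Macrophage products closed the set: Lyz2, a lysozyme, stood at 461 against 1.78 FPKM and Ccl8, a chemokine, at 713 against 3.6 FPKM. Reads of Lyz2 may be shared with its close copy Lyz1. In both ear pairs these 12 genes were higher in dermis too, by between 5.21 and 9.17 on the log2 scale.

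The 12 genes furthest apart towards epidermis had narrower differences, and held genes of the cornified envelope, protease inhibitors and an antimicrobial peptide. Sprr4, a small proline-rich protein of the cornified envelope, stood at 26.4 FPKM in dermis and 232 FPKM in epidermis, a difference of -3.09. Ccl20, a chemokine that attracts cells bearing Ccr6, stood at 4.45 against 42.6 FPKM, 9.58 times as much in epidermis (8.18 to 11.3). Stfa3, a stefin, that is an inhibitor of cysteine proteases, stood at 11.4 against 88.7 FPKM, and Cst6, cystatin E/M, another such inhibitor, at 46 against 228 FPKM. Defb6, a beta-defensin, one of the antimicrobial peptides, was far more abundant than these, at 335 against 1798 FPKM. Sprr1a stood at 62.9 against 346 FPKM, and Krt16, a keratin of outer root sheath and stressed epidermis, at 27.4 against 136 FPKM. Sprr and stefin genes have close copies among which reads may be split.

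Among the rest of the epidermal genes, Apoc1, an apolipoprotein, stood at 308 against 1453 FPKM and Chit1, a chitinase, at 5.0 against 29.8 FPKM. Wfdc3, of the whey acidic protein family, stood at 4.51 against 27.6 FPKM, and the unnamed transcript 1190003J15Rik at 53.9 against 245 FPKM. Ch25h, the enzyme that makes 25-hydroxycholesterol, stood at 37.2 against 175 FPKM. It was the one of these 12 that was not higher in ear epidermis, since it stayed below 1 FPKM in all 4 ear libraries.

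Of the small leucine-rich proteoglycans, which coat collagen fibrils and set their width, 9 of 9 expressed members were higher in dermis, with a median difference of 5.26. Besides Dcn, Lum and Ogn, Prelp, which links collagen to basement membranes, stood at 112 against 0.985 FPKM. Biglycan, Bgn, stood at 365 against 12.1 FPKM, and Fmod, fibromodulin, the member with the smallest difference but Omd, at 11.2 against 0.618 FPKM.

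Of the fibrillar collagens whose estimates did not fail, 5 of 5 were higher in dermis (median 5.14). Col5a1 and Col5a2, chains of the collagen that starts and thins type I fibrils, stood at 163 against 1.3 FPKM and 249.5 against 2.99 FPKM. Col5a3, the rarer chain of the same collagen, stood at 40 against 0.161 FPKM. Col11a1, a chain best known from cartilage, reached 2.15 FPKM in dermis.

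Of 10 fibril-associated and beaded collagens, 8 were higher in dermis and 1 in epidermis (median 4.11). Col6a3, a chain of the beaded collagen VI that surrounds cells, stood at 136 against 0.416 FPKM. Its partners Col6a1 and Col6a2 stood at 384 against 15.2 FPKM and 333 against 4.88 FPKM. Col14a1, which decorates fibrils, stood at 78.3 against 3.0 FPKM. The exception was Col8a2, a short-chain collagen, at 3.42 against 8.22 FPKM.

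Genes of elastic fibres followed the same pattern, with 17 of 20 higher in dermis and 0 in epidermis (median 3.85). Eln, elastin itself, stood at 154 against 0.794 FPKM. Fbn1, fibrillin-1, the main microfibril protein on which elastin is laid down, stood at 164 against 0.423 FPKM. Lox, the lysyl oxidase that crosslinks both elastin and collagen, stood at 122 against 0.334 FPKM, and Mfap4, a microfibril-associated protein, at 212 against 0.941 FPKM. The 3 members within the rule were latent TGF-beta binding proteins, Ltbp2, Ltbp3 and Ltbp4, with differences of 0.44, 0.38 and 0.62, a count named after the values were seen.

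Of the enzymes that build collagen, 12 of 17 were higher in dermis and 0 in epidermis (median 2.78). Pcolce, which speeds the removal of the collagen propeptide, stood at 539 against 2.88 FPKM, its relative Pcolce2 at 192 against 2.2 FPKM, and Adamts2, which removes the other propeptide, at 221 against 0.669 FPKM. Fkbp10, a collagen chaperone, stood at 45.5 against 1.11 FPKM. P4hb, the subunit of prolyl hydroxylase that also folds other proteins as a disulphide isomerase, stood at 269 against 186 FPKM, a difference of 0.53. It was looked up after the values were seen.

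Matrix proteases and their inhibitors had 17 of 20 members higher in dermis and 0 in epidermis (median 3.31). Mmp2, gelatinase A, stood at 577 against 12.5 FPKM. Mmp27, a less studied metalloproteinase, stood at 87 against 0.435 FPKM. Mmp3, stromelysin-1, stood at 155 against 4.13 FPKM, and Timp2, an inhibitor of metalloproteinases, at 776 against 37 FPKM. Timp3, the inhibitor that stays bound to matrix, did not differ by the rule, at 91.1 against 89.5 FPKM, and it was singled out after its value was seen.

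The group of hyaluronan and versican genes was mixed, with 5 of 10 higher in dermis and 1 in epidermis (median 0.59). Tnfaip6, which crosslinks hyaluronan in inflammation, stood at 78.1 against 1.2 FPKM. Vcan, the proteoglycan versican, stood at 14.3 against 0.313 FPKM, and the hyaluronan synthases Has1 and Has2 at 35.7 against 2.49 FPKM and 8.57 against 1.98 FPKM. Hyal2, a hyaluronidase, lay on the other side at 8.88 against 21.4 FPKM.

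The promoters of a basal keratin gene and of a dermal matrix gene are printed to show the sequence behind the counts of motifs that follow them. Promoter windows of 300 bases, from 250 before to 50 after the first start listed for the gene, came from RefSeq on GRCm38.p6 for 9702 of the 13704 genes that are not short RNAs. In 31.8% of them that start lay more than 50 bases inside the annotated span of the gene, so these windows hold sequence of the gene itself. The naming rule gave Krt14, Krt5, Dpt and Col6a2. The windows of Krt14 and Col6a2 lie wholly or mostly inside the annotated span of their genes and are not printed. Each sequence is 5′ to 3′ on the strand of its gene, and capitals mark matches on either strand to the TATA box TATAAA, to the Sp factor core GGGCGG, to the AP-1 core TGANTCA and to the TEAD core CATTCC.
Krt5 promoter, chr15:101712856-101713155, minus strand: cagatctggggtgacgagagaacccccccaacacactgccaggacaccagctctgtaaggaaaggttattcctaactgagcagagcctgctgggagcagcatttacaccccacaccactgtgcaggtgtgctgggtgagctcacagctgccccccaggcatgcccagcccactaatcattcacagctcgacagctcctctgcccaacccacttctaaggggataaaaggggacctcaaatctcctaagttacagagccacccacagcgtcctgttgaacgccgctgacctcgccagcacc
Dpt promoter, chr1:164796413-164796712, plus strand: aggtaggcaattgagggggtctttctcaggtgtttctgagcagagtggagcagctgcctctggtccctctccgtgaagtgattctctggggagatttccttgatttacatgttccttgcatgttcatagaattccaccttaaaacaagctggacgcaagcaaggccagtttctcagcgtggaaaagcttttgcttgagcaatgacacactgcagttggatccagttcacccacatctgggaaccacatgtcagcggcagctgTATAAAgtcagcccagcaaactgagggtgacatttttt
The Krt5 window held none of the 4 motifs, and 57.7% of its bases were G or C. The Dpt window had 48.7% G or C and 1 TATAAA, the box at which the transcription machinery of many tissue-specific genes assembles.

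Across genes, windows of called genes held TATAAA more often than those of all genes. Windows of genes higher in dermis held GGGCGG less often, while those of genes higher in epidermis were close to all genes. TATAAA occurred in 12% of the 1527 windows of genes higher in dermis and in 11.8% of the 729 of genes higher in epidermis, against 7.82% of all 9702. GGGCGG occurred in 50.8% of the dermal and 60.6% of the epidermal windows, against 62.8% of all. The median number of CG dinucleotides per window was 10, 17 and 20 in that order. TGANTCA, the core of AP-1 sites, occurred in 7.73%, 9.33% and 5.45%, and CATTCC in 14.2%, 15.5% and 12.2%. CANNTG, the E-box bound by factors such as Twist, occurred in 69.7%, 67.5% and 64.1%. With the outermost listed start in place of the first, TATAAA occurred in 12% of the dermal, 11.9% of the epidermal and 7.80% of all windows, and GGGCGG in 50.8%, 60.1% and 62.7%. Both strands were searched, GGGCGG matches may overlap, and these shares are a description with no test. A match is not a bound site.

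The basement membrane was divided between the layers by component. Of 27 expressed genes, 15 were higher in dermis and 4 in epidermis (median 1.84). On the dermal side stood Nid1, nidogen-1, which links laminin to collagen IV, at 123 against 0.438 FPKM. Col15a1, a collagen that sits below the membrane, stood at 103 against 0.444 FPKM, and Lama2, the laminin chain of muscle and nerve membranes, at 53 against 0.232 FPKM. The common collagen IV chains Col4a1 and Col4a2 stood at 107 against 7.11 FPKM and 66.9 against 4.9 FPKM. On the epidermal side stood Lamb3, a chain of the laminin that anchors keratinocytes, at 46.2 against 125 FPKM. Col17a1, the collagen that spans the keratinocyte membrane, stood at 261 against 609 FPKM. Npnt, nephronectin, stood at 7.84 against 17.4 FPKM, and Col7a1, the collagen of anchoring fibrils, at 11.1 against 23.3 FPKM. With equal totals, 15 and 0 genes were called.

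Integrin subunits, the receptors with which cells hold on to these membranes, divided in the same way. Itga3, Itgb4 and Itga6, the subunits that bind laminin in keratinocytes, were the 3 higher in epidermis. Itga6 stood at 38.1 against 80.1 FPKM, Itgb4 at 33.8 against 72.5 FPKM and Itga3 at 17.7 against 40 FPKM. Of the 17 expressed, 8 were higher in dermis, among them Itga11, a collagen receptor of fibroblasts, at 11.5 against 0.273 FPKM. Itgb3 stood at 7.65 against 0.226 FPKM, Itga9, which binds tenascin, at 6.28 against 0.203 FPKM and Itga8, the nephronectin receptor, at 3.75 against 0.113 FPKM. The shared partner Itgb1 stood at 145 against 94.6 FPKM, a difference of 0.61, and was picked once its value was known. Of 6 hemidesmosome genes, whose complex rivets keratinocytes to the membrane, 3 were higher in epidermis and 0 in dermis (median -0.99). With equal totals 0 of the 3 integrins and 0 of the hemidesmosome genes were called.

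Structural genes of keratinocytes were higher in epidermis by modest and similar amounts. Of 14 expressed keratins of the epidermis, 12 were higher there and 0 in dermis (median -1.62, 7 with equal totals). After Krt16, the widest differences were those of Krt6a, another stress-response keratin, at 12.8 against 55.8 FPKM, Krt14, and Krt2, a keratin of late differentiation, at 1.92 against 9.4 FPKM. The most abundant, Krt15, a basal keratin, stood at 2462 against 8000.1 FPKM, and Krt17, a keratin of follicles, at 598 against 1987 FPKM; both were named after their values were seen.

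The junctions between keratinocytes had lower medians. Of 12 desmosome genes, which rivet cell to cell, 8 were higher in epidermis (median -1.23, 1 with equal totals). Perp, a membrane protein of desmosomes, stood at 657 against 2405 FPKM, Pkp3, a plakophilin, at 44.6 against 129 FPKM, and the desmosomal cadherins Dsg1a and Dsc3 at 72.9 against 203 FPKM and 118 against 324 FPKM. Adherens and tight junction genes had 8 of 14 higher in epidermis and 2 in dermis (median -1.13, 3 and 2 with equal totals). Cldn1, the claudin that seals the epidermal barrier, stood at 59 against 196 FPKM, and Cldn8 and Cldn4 at 3.83 against 13.3 FPKM and 15.6 against 48.2 FPKM. The 2 members higher in dermis were cadherins of mesenchymal cells, Cdh11 at 8.39 against 0.755 FPKM and Cdh2 at 1.57 against 0.22 FPKM. Of 8 connexins, the gap junction proteins, 3 were higher in epidermis and 1 in dermis (median -0.74, 0 and 2 with equal totals). Gjb5 stood at 9.98 against 28.6 FPKM, against Gjc1, a connexin of muscle and vessels, at 5.08 against 0.861 FPKM.

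The barrier itself was seen in genes of the cornified envelope, the hardened shell of dead keratinocytes. Of 32 measured, 21 were expressed, 11 were higher in epidermis and 0 in dermis (median -1.02, 5 with equal totals). Besides Sprr4 and Sprr1a, Sprr1b stood at 1.45 against 9.74 FPKM and Krtdap, a keratinocyte differentiation protein, at 457 against 1431 FPKM. Lor, loricrin, and Flg2, a filaggrin relative, which are made in the last living layer, did not follow. Lor stood at 33.7 against 31.3 FPKM and Flg2 at 5.39 against 4.56 FPKM, while in the 2 ear pairs Lor differed by -2.77 and -2.15 and Flg2 by -1.68 and -1.45. Both were picked once their values were known. Several Lce and Sprr genes have close copies, so their levels are uncertain.

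Kallikreins and their inhibitors, which control the shedding of dead cells, had 8 of 11 members higher in epidermis and 0 in dermis (median -1.25, 3 with equal totals). After Cst6, Klk10 stood at 16 against 68.7 FPKM and Klk6 at 1.02 against 5.85 FPKM. Spink5, the inhibitor lost in Netherton syndrome, stood at 23.2 against 68.2 FPKM. The lipid genes of the barrier were less set apart, with 3 of 19 higher in epidermis and 2 in dermis (median -0.46). With equal totals 0 and 2 were called, at a median of -0.02. Lass3, a ceramide synthase, stood at 5.2 against 15.3 FPKM and Nipal4 at 8.02 against 21.8 FPKM. Alox15 and Ugcg were the 2 higher in dermis. Alox15, a lipoxygenase of macrophages as well, stood at 7.15 against 0.214 FPKM, and Ugcg, the glucosylceramide synthase, at 23.1 against 7.21 FPKM.

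**Figure D2:**
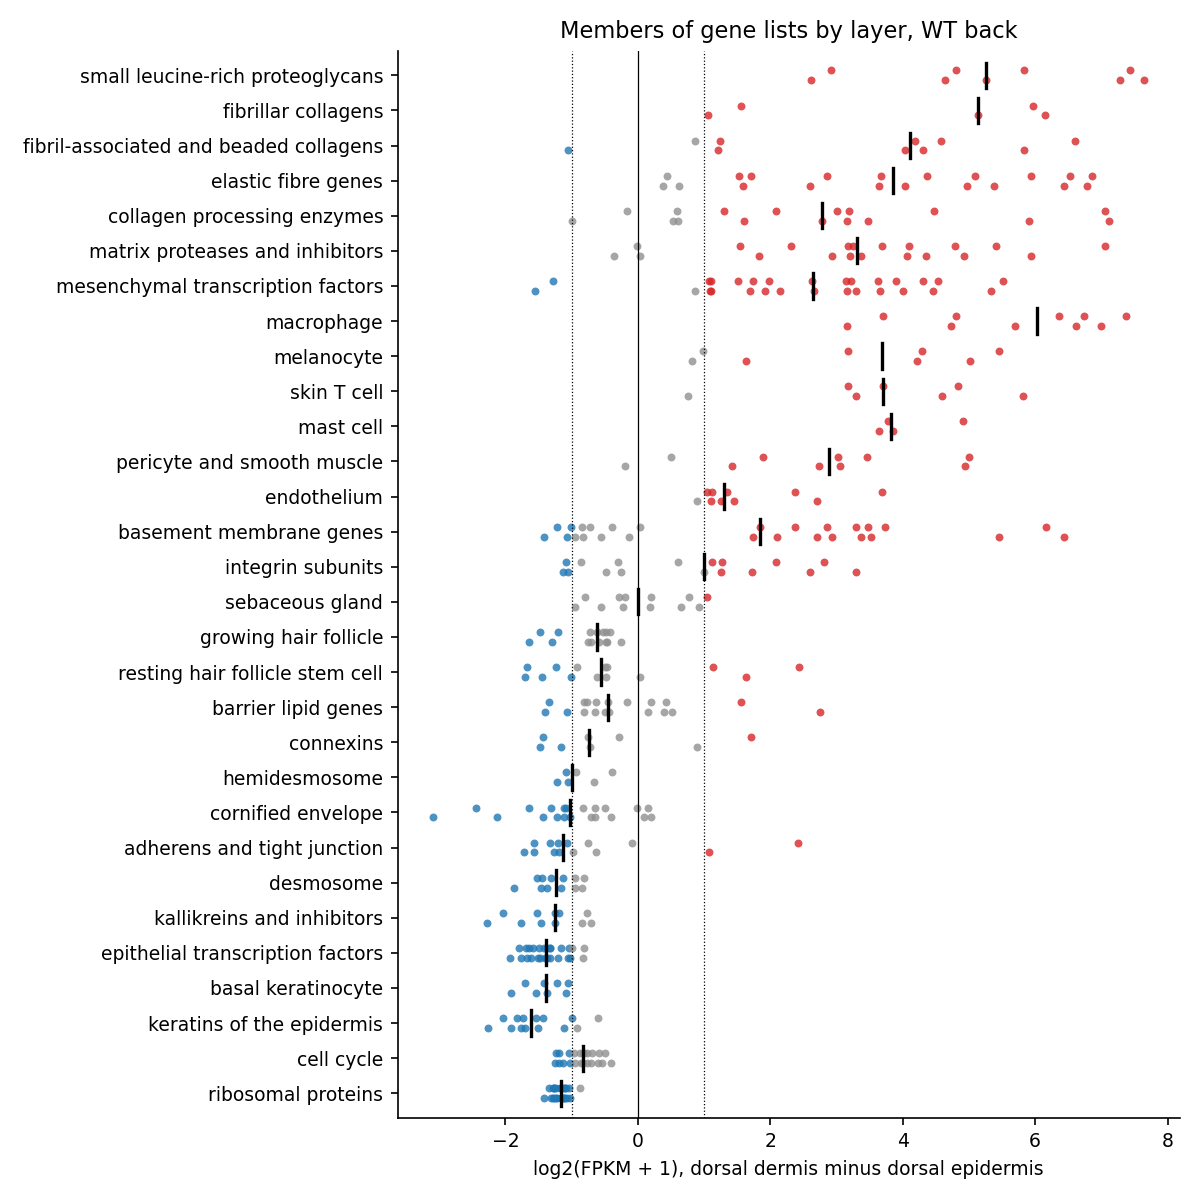
Difference between dermis and epidermis of WT back, in log2(FPKM + 1), for each expressed member of 30 gene lists; red points are higher in dermis by the rule, blue points higher in epidermis, grey points neither, and the black bar is the median of the list. Dermal lists spread widely, with a median of 5.26 for small leucine-rich proteoglycans and single members below 0 such as Col8a2 at -1.06, whereas epidermal lists lie closer together, with medians of -1.62 for keratins and -1.23 for desmosomes.

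Genes of the growing follicle and of the sebaceous gland stood closer to equality than those of the epidermal sheet. As dermal level in percent of epidermal level, the median was 37.7% for basal and 35.9% for suprabasal keratinocyte markers, 55.5% for genes of the growing hair follicle and 105% for sebaceous gland genes. In Wt/Wt ear the 4 medians were 7.16%, 6.09%, 8.34% and 31.5%, and in Wt/Koa ear they were 10.7%, 11.8%, 26.4% and 39.6%. The order of the sheet, the growing follicle and the gland was thus the same in the 3 pairs, except between basal and suprabasal markers, at a higher level in the back. The medians do not rest on one set of genes. In the back, Wt/Wt ear and Wt/Koa ear, 15, 10 and 19 growing follicle genes and 12, 13 and 13 gland genes were expressed. Genes of the resting follicle stem cells had medians of 65.1% in the back, 69.9% in Wt/Wt ear and 65.6% in Wt/Koa ear, below the gland in the back and above it in both ears.

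The growing follicle had 4 of its 15 expressed genes higher in epidermis and 0 in dermis (median -0.62, 1 and 0 with equal totals). Krt32, a keratin of the hair cuticle, stood at 7.11 against 24.3 FPKM. Gata3, a factor of the inner root sheath, stood at 55.2 against 155 FPKM, Hoxc13, which switches on shaft keratins, at 4.0 against 11.2 FPKM and Msx2, a factor of the hair matrix, at 3.26 against 8.82 FPKM. Of 12 sebaceous gland genes 1 was higher in dermis and 0 in epidermis. Their median was 0.00 and became 0.38 with equal totals and 0.18 with the median of ratios. Elovl5, a fatty acid elongase, stood at 38.6 against 18.2 FPKM, Plin2, the coat protein of lipid droplets, at 79.4 against 41.2 FPKM, and Dgat2, which makes triglycerides, at 14.3 against 28.6 FPKM.

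Genes of the resting follicle stem cells went both ways, with 5 of 14 higher in epidermis and 3 in dermis (median -0.56, 2 and 3 with equal totals). Sox9 stood at 27.3 against 89.1 FPKM, Lhx2 at 25.9 against 72.3 FPKM and Fgf18, a signal that holds follicles at rest, at 12 against 29.6 FPKM. Those higher in dermis were Cd34 at 361 against 65.9 FPKM, Tcf7l1 at 15.8 against 4.42 FPKM and Postn at 494 against 224 FPKM. Cd34 is also made by fibroblasts and vessels, and Postn by fibroblasts. Genes of the dermal papilla, the fibroblast cluster that instructs the follicle, had 8 of 15 higher in dermis and 1 in epidermis (median 1.22). Fgf7, a growth factor for keratinocytes, stood at 24.4 against 0.333 FPKM, Crabp1, a retinoic acid binding protein, at 39.5 against 1.94 FPKM and Vcan as above. Crabp2, its relative, was the member higher in epidermis, at 28 against 71.8 FPKM.

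**Figure D3:**
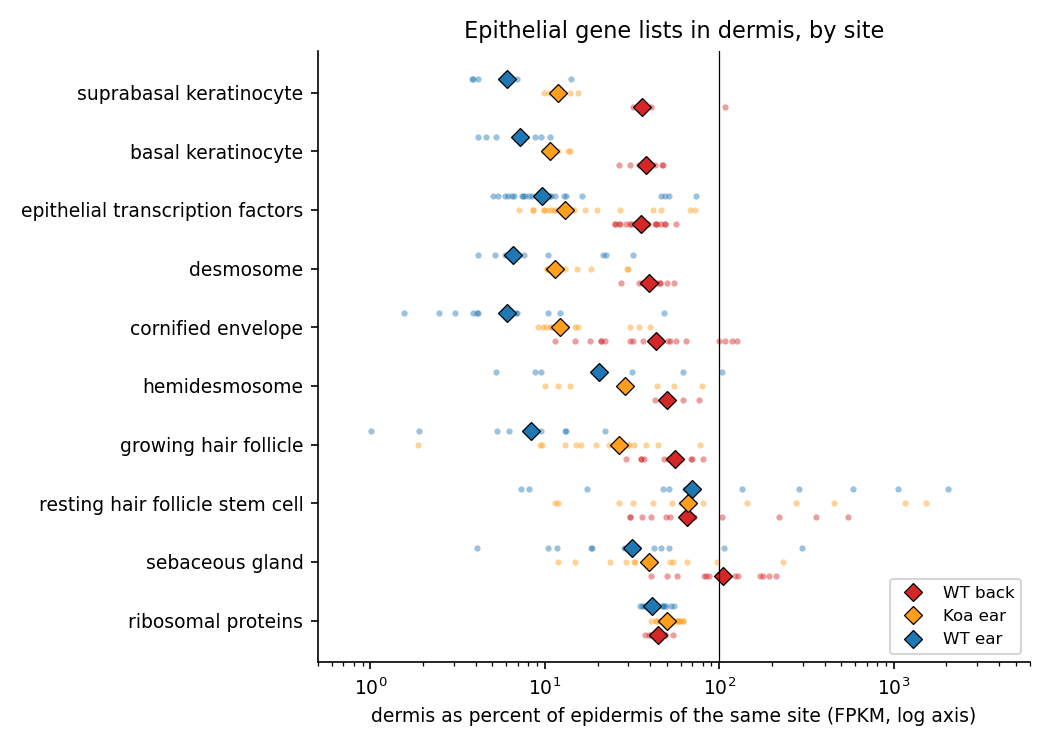
Dermal level as percent of the epidermal level of the same site, on a log axis, for each expressed gene of 10 lists (small points) and for the median of each list (diamonds), in WT back (red), Koa ear (orange) and WT ear (blue); genes listed at 0 in either layer are not drawn. Basal keratinocyte markers stand at a median of 37.7% in the back, 10.7% in Koa ear and 7.16% in WT ear, while ribosomal protein genes stand at 44.6%, 50.2% and 40.9%.

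The transcription factors of the layers separated by lineage. Of 26 factors of epithelial cells, 23 were higher in epidermis and 0 in dermis (median -1.38, 8 with equal totals). Ovol1 and Ovol2, which keep keratinocytes epithelial, stood at 16.9 against 67.3 FPKM and 4.15 against 15.6 FPKM. Foxq1, needed for a normal hair medulla, stood at 4.65 against 18.5 FPKM, and Hopx at 48.6 against 167 FPKM. The differences ranged narrowly, from -1.93 to -0.81.

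Of 28 expressed mesenchymal factors, 25 were higher in dermis and 2 in epidermis (median 2.64). Twist1 and Prrx1, factors of mesenchyme and fibroblasts, stood at 53.7 against 0.199 FPKM and 71.4 against 0.796 FPKM. Tbx15, a factor that sets the pigment border between back and belly, stood at 29.8 against 0.329 FPKM, and Twist2 at 22.8 against 0.0855 FPKM. En1, a factor of the embryonic lineage of many back fibroblasts, stood at 6.24 against 0.175 FPKM in the back and at a difference of 0.07 and 0.03 in the 2 ear pairs; Zic1 stood at 5.1 against 0.371 FPKM, with ear differences of 0.24 and -0.10. Both were named after their values were seen. The 2 members on the epidermal side were Foxc1, which is also active in follicle stem cells, at 11.7 against 36.2 FPKM, and Snai2, a zinc finger repressor that basal keratinocytes also express, at 22.1 against 55.3 FPKM.

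Hox genes, which record position along the body, were found in the libraries of both layers of the back and differed by cluster. The dermal level came to a median of 44.4% of the epidermal one for Hoxa and 50.0% for Hoxb genes, beside 37.7% for basal keratinocyte markers. Whether dermal cells themselves express these genes was not tested. Of 9 expressed Hoxa genes 3 were higher in epidermis and 1 in dermis (median -0.82), and of 9 Hoxb genes 3 and 0 (median -0.88). The 7 Hoxc genes had 1 and 2, with a median of -0.19 that turned to 0.24 with equal totals, and the 3 Hoxd genes had 0 and 0 (median 0.36). Hoxa5 stood at 15 against 44.9 FPKM. Hoxc13, given above with the follicle, was the Hoxc gene higher in epidermis. Hoxb7 and Hoxb6 had 5.77 against 19.8 FPKM and 6.22 against 19.9 FPKM. Towards dermis stood Hoxa10 at 2.34 against 0.194 FPKM, Hoxc9 at 7.24 against 0.917 FPKM and Hoxc10 at 5.8 against 0.425 FPKM. With equal totals the Hoxa, Hoxb and Hoxc genes higher in epidermis numbered 0, 2 and 0.

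Secreted growth signals were shared out between the layers, with some ligands on the side opposite to a receptor and others on the same side. The Wnt ligands had 5 of 13 higher in epidermis and 2 in dermis (median -0.84, 2 and 2 with equal totals). Wnt10a, Wnt7b, Wnt4 and Wnt3, ligands of keratinocytes, stood at 10.5 against 33.8 FPKM, 8.5 against 23.6 FPKM, 19.8 against 49 FPKM and 15.4 against 34.2 FPKM. Wnt16 stood at 3.99 against 14.7 FPKM. On the dermal side were Wnt2 at 5.2 against 0.0165 FPKM and Wnt9a at 2.64 against 0.243 FPKM. The R-spondins, which strengthen Wnt signals, had 2 of 3 higher in dermis, Rspo1 at 10.6 against 0.0968 FPKM and Rspo2 at 6.3 against 0.0201 FPKM. Rspo3 stood at 5.75 against 11.8 FPKM.

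Receptors of Wnt and R-spondins had 2 of 17 higher in each layer, near the 16.1% and 8.23% of all genes. With equal totals 0 of the epidermal calls were left and the median of -0.27 turned to 0.16. Fzd6, the frizzled that orients hairs, stood at 14.4 against 36.4 FPKM and Fzd10 at 17.9 against 42.8 FPKM. Fzd4 stood at 11.2 against 0.662 FPKM and Ror2, a receptor of Wnt5a, at 3.31 against 0.922 FPKM. Secreted Wnt inhibitors had 4 of 9 higher in dermis and 1 in epidermis (median 0.90). Sfrp4 stood at 24 against 0.63 FPKM, Sfrp2 at 26.4 against 0.843 FPKM, Dkk2 at 24.2 against 1.61 FPKM and Notum, the enzyme that strips lipid from Wnts, at 6.19 against 1.88 FPKM. Sostdc1, which blocks both BMP and Wnt signals, was the epidermal one at 56.1 against 253 FPKM.

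Among BMP and TGF-beta ligands, 6 of 13 were higher in dermis and 2 in epidermis (median 0.60). Gdf10, Inhba and Tgfb2 stood at 50.7 against 0.89 FPKM, 7.41 against 0.762 FPKM and 20.7 against 4.52 FPKM. Gdf15, a stress-response cytokine, stood at 34.7 against 0.323 FPKM. Bmp5 stood at 3.27 against 0.0136 FPKM and Tgfb3 at 15.3 against 6.2 FPKM, while Bmp2 and Bmp3 were higher in epidermis at 15.3 against 32.8 FPKM and 2.6 against 6.83 FPKM, a call that equal totals removed. Antagonists of BMP had 5 of 12 higher in dermis and 2 in epidermis (median 0.25). Fstl1, a follistatin-like protein, stood at 478 against 7.49 FPKM. Chrdl1, a chordin relative, stood at 17.1 against 0.0875 FPKM, and Bmper and Chrd at 5.31 against 0.361 FPKM and 4.19 against 0.288 FPKM. Fst, follistatin, joined Sostdc1 on the epidermal side at 54.1 against 142 FPKM.

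Among the FGF signals, Fgf7, Fgf2 and Fgf10 were the 3 of 8 expressed ligands higher in dermis. Fgf10 stood at 4.35 against 0.528 FPKM and Fgf2 at 3.65 against 0.193 FPKM. Their receptor in keratinocytes, Fgfr2, stood at 45 against 87.4 FPKM, a difference of -0.94, just short of the rule. Fgfr3 was higher in epidermis at 25.1 against 73.8 FPKM, and Fgfr4 in dermis at 3.62 against 0.0536 FPKM. Fgf18, the 1 ligand higher in epidermis, was given above.

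The EGF family ran the other way. Of 8 expressed ligands, 3 were higher in epidermis and 0 in dermis (median -0.79), and all 3 calls held with equal totals. Epgn, epigen, stood at 79 against 295 FPKM, Hbegf at 28.4 against 104 FPKM and Areg, amphiregulin, at 22.7 against 77.7 FPKM. The receptor Egfr, which keratinocytes use, was higher in the dermal library at 65.4 against 28.3 FPKM, a difference of 1.18. It differed by -0.46 and -0.37 in the 2 ear pairs. Erbb2 and Erbb3, its partners, stood at 11.8 against 22.8 FPKM and 15 against 26.4 FPKM, differences of -0.89 and -0.77.

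The list of PDGF, VEGF, HGF, IGF and KIT ligands, which also holds others such as Cxcl12, had 9 of 22 members higher in dermis and 4 in epidermis (median 0.44). Pdgfa and Pdgfb, growth factors for fibroblasts, were higher in epidermis at 22.7 against 62.7 FPKM and 7.25 against 15.5 FPKM. Their receptors Pdgfra and Pdgfrb stood at 55.3 against 0.268 FPKM and 31.5 against 0.152 FPKM, on the dermal side. The ligands of the macrophage receptor Csf1r were parted, with Il34, on which Langerhans cells depend, at 13.7 against 33 FPKM and Csf1 at 81.3 against 6.29 FPKM. Csf1r itself stood at 75.3 against 0.473 FPKM. Ntf3, a nerve growth factor relative, was the fourth epidermal ligand at 7.14 against 17 FPKM. With equal totals 0 of these 4 calls remained.

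Other dermal ligands of this list were the following. Igf1 stood at 20.4 against 0.759 FPKM, Angpt1, a ligand of the vessel receptor Tek, at 9.58 against 0.0489 FPKM and Pdgfd at 9.84 against 0.139 FPKM. Vegfc, the growth factor of lymph vessels, stood at 4.7 against 0.151 FPKM, and Angpt2 at 3.81 against 0.292 FPKM. Cxcl12, the chemokine that holds cells bearing Cxcr4, stood at 176 against 42.3 FPKM. Gas6 stood at 318 against 138 FPKM and Igf2 at 3.01 against 0.579 FPKM. Of their 16 expressed receptors, 10 were higher in dermis and 0 in epidermis (median 1.40). Cxcr4 stood at 103 against 6.69 FPKM, Tek at 15 against 0.248 FPKM, Axl, a receptor of Gas6, at 81.1 against 30.7 FPKM and Igf2r at 12.6 against 3.51 FPKM. Ret, the receptor of GDNF, and Kdr, the VEGF receptor of vessels, stood at 2.55 against 0.327 FPKM and 1.68 against 0.126 FPKM.

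**Figure D4:**
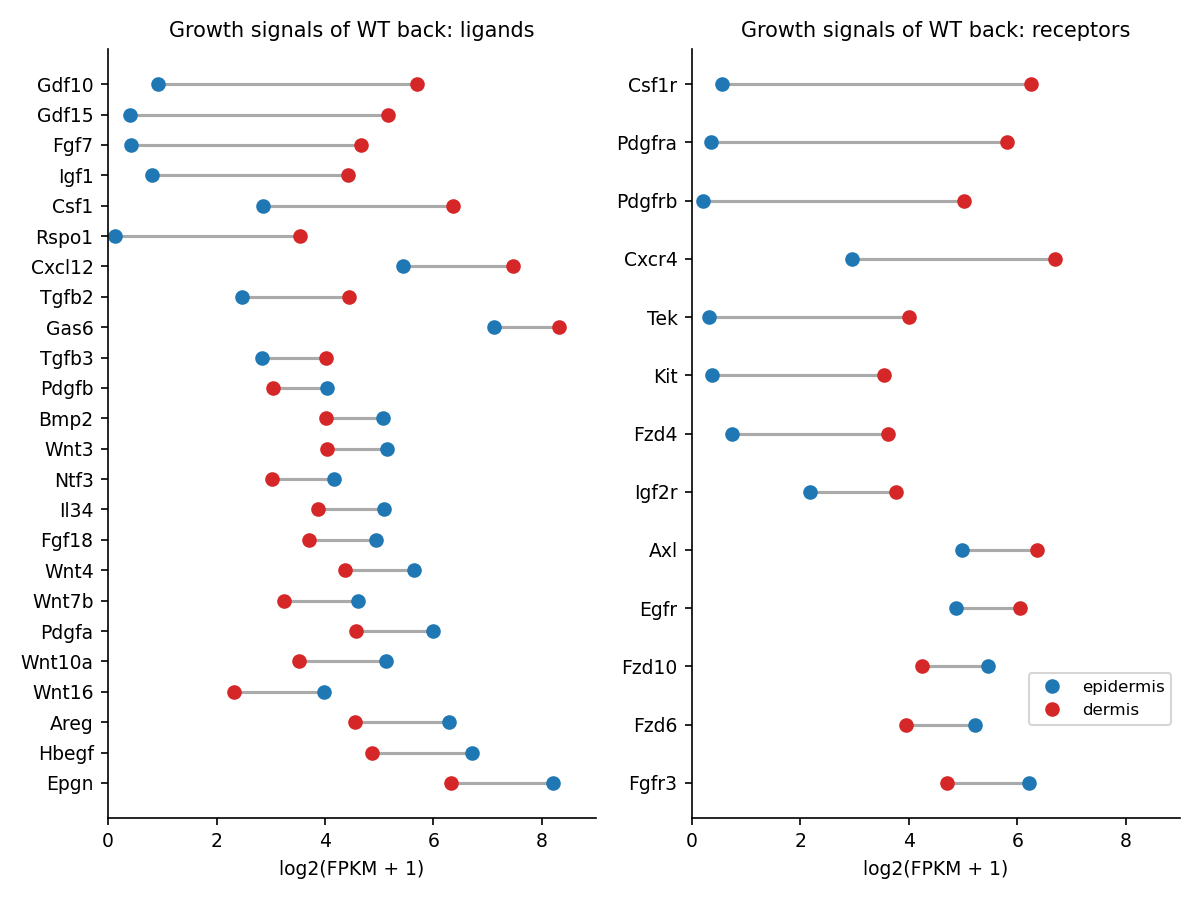
Levels in dermis (red) and epidermis (blue) of WT back, as log2(FPKM + 1), of the 24 growth factor ligands and 13 receptors of the lists that pass the rule and reach 10 FPKM in either library, 1 library per layer. Fgf7, Igf1 and Rspo1 lie at the dermal end and Epgn, Hbegf and Areg at the epidermal end of the ligands, while Pdgfra stands at 55.3 against 0.268 FPKM and Fgfr3 at 25.1 against 73.8 FPKM among the receptors.

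Hedgehog and Notch genes differed less. Of 12 Hedgehog genes 1 was higher in epidermis, the ligand Shh at 1.54 against 4.25 FPKM, and 0 in dermis (median 0.09). Ptch1, the receptor and target of the pathway, and Gli1, its target, stood at 7.79 against 6.93 FPKM and 8.43 against 8.2 FPKM, and were looked up after the values were seen. The Notch list had 5 of 14 higher in epidermis and 3 in dermis. With equal totals 1 and 3 were called, and its median of -0.40 turned to 0.10. Jag2, Jag1 and Dll1, ligands of keratinocytes, stood at 27.3 against 65.8 FPKM, 16.9 against 39.9 FPKM and 13.8 against 35.3 FPKM. Nrarp and Hes1, targets of the pathway, stood at 46.8 against 147 FPKM and 302 against 705 FPKM, and Hey2, Mfng and Heyl at 3.22 against 0.108 FPKM, 2.2 against 0.232 FPKM and 2.21 against 0.408 FPKM.

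Retinoid genes went both ways, with 6 of 16 higher in dermis and 2 in epidermis (median 0.28). Rarres2, the precursor of the attractant chemerin, stood at 429.6 against 5.14 FPKM. Aldh1a1, which makes retinoic acid, stood at 38.1 against 1.59 FPKM and Rbp4, the carrier of retinol, at 8.85 against 0.087 FPKM. Stra6, the uptake receptor for that carrier, stood on the other side at 1.15 against 4.88 FPKM, beside Crabp2.

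Most chemokines were higher in dermis. Of 22 expressed chemokine ligands, 15 were higher in dermis and 3 in epidermis (median 2.70). After Ccl8, Ccl6 stood at 96.7 against 0.333 FPKM, Ccl11, the attractant of eosinophils, at 50.9 against 0.509 FPKM and Cxcl13, that of B cells, at 27.4 against 0.132 FPKM. The 3 on the epidermal side were Ccl20 as above, Ccl27a, the attractant of skin-homing T cells, at 108 against 469 FPKM, and Cxcl16 at 27.8 against 86.5 FPKM. All 3 calls held with equal totals. Of 17 Toll-like receptor, interleukin 1 and alarmin genes, 7 were higher in dermis and 2 in epidermis (median 0.84, 10 and 0 with equal totals). The calprotectin subunits S100a8 and S100a9 stood at 23.8 against 1.34 FPKM and 35.9 against 3.56 FPKM, and Tlr4, the receptor of endotoxin, at 7.97 against 0.13 FPKM. Il1rn, the antagonist of interleukin 1, and Tslp, a cytokine of keratinocytes, stood at 10.4 against 29.1 FPKM and 10.6 against 23.1 FPKM.

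Markers of immune cells were higher in the dermal library, most of those listed for Langerhans cells among them. Of 10 macrophage markers 10 were higher in dermis, with a median of 6.03 and a summed level of 1355 against 11.2 FPKM. C1qa, C1qb and C1qc, the chains of the first complement component, stood at 255 against 1.01 FPKM, 169 against 0.589 FPKM and 151 against 0.557 FPKM. Of 4 expressed mast cell markers 4 were higher (median 3.82). Mcpt4, a protease of connective tissue mast cells, stood at 32.7 against 0.12 FPKM, and Tpsb2, a tryptase, at 11.5 FPKM in dermis and is listed at 0 in epidermis.

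Of 7 T cell markers 6 were higher in dermis (median 3.70). Cd3g stood at 121 against 1.16 FPKM, Cd7 at 79.7 against 1.81 FPKM and Trat1 at 29.5 against 0.263 FPKM. Of 7 Langerhans cell markers, 6 were higher in dermis and 1, the epithelial adhesion protein Epcam, in epidermis (median 3.74). Cd207, langerin, a receptor of these antigen-presenting cells, stood at 24.5 against 0.905 FPKM, and Cd74, the chaperone of class II molecules, at 801 against 20.9 FPKM. The Langerhans and T cell lists do not separate cells of the epidermis from cells of the dermis. Class II genes such as H2-Aa, at 319 against 9.67 FPKM, are shared with macrophages and have close relatives. The ear pairs showed the same side for Cd207, with 2.96 and 3.53, and for Cd3g, with 4.54 and 5.79. The labels do not say by which markers the epidermal cells were sorted, so the place of these cells in the skin and their passage through the sort cannot be told apart.

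Pigment cell markers lay on the same side. Of 8 melanocyte markers 6 were higher in dermis and 0 in epidermis (median 3.69), with summed levels of 309 against 18.1 FPKM. Dct stood at 146 against 2.35 FPKM, Mlana at 59 against 0.86 FPKM, Tyrp1 at 22.7 against 0.213 FPKM and Pmel at 43 against 1.38 FPKM, all of them pigment granule proteins. Tyr and Mitf, the rate-limiting enzyme and the master factor of pigment cells, stood at 8.69 against 4.52 FPKM and 17.6 against 8.45 FPKM, differences of 0.81 and 0.98.

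Vessel, nerve and muscle cells were seen at low to moderate levels in dermis. Of 10 expressed endothelial markers 9 were higher in dermis (median 1.30), with levels of 1.32 to 15 FPKM. Tek stood highest, Lyve1, a marker of lymph vessels and some macrophages, at 8.89 against 0.512 FPKM and Pecam1 at 9.75 against 1.07 FPKM. Of 10 pericyte and smooth muscle markers 8 were higher in dermis (median 2.88). Acta2, smooth muscle actin, stood at 133 against 3.16 FPKM, Myh11, the myosin of the same cells, at 42 against 0.405 FPKM and Des, desmin, at 12.4 against 0.227 FPKM. Of 7 Schwann cell markers 5 were higher in dermis (median 1.61). Sox10 stood at 5.5 against 0.113 FPKM, though pigment cells express it too.

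Fat and blood were also looked for. Of 9 adipocyte markers 3 were expressed, and the defining genes Adipoq, Plin1 and Lep stood below 1 FPKM in both layers, at 0.30, 0.298 and 0.142 FPKM in dermis. Lpl, lipoprotein lipase, stood at 159 against 7.34 FPKM. Of 4 expressed skeletal muscle markers 3 were higher in dermis (median 2.32), led by Tnnt3 at 10.5 against 0.0398 FPKM. All 5 expressed red blood cell genes were higher in dermis (median 5.46), led by the globin Beta-s at 1112 against 14.9 FPKM. Globin genes have close copies, so the division among them is uncertain.

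Genes of general cell function were tilted towards epidermis. Of 28 ribosomal protein genes 27 were higher in epidermis (median -1.16), among them Rpl13 at 1063 against 2837 FPKM. Of 21 respiratory chain genes 5 were higher there (median -0.71), and of 23 cell cycle genes 7 (median -0.83), such as Cdc20 at 13.9 against 34.4 FPKM. No call in these 3 lists held with equal totals. Common reference genes had a median of -0.70, with Actb, beta-actin, at 1127 against 2115 FPKM and Gapdh at 201 against 289 FPKM, whereas Gusb, a lysosomal enzyme, stood at 31.4 against 3.55 FPKM.

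Early response genes, which are induced within minutes by growth signals or stress, were high in both libraries. Their 20 members summed to 7174 FPKM in dermis and 13674 FPKM in epidermis, and 10 were higher in epidermis (median -1.02, 2 with equal totals). The sums were lower in the ear. There the 19 expressed members came to 715 and 1233 FPKM in dermis and epidermis of Wt/Wt mice, and to 838 and 1274 FPKM in Wt/Koa mice. Egr2 stood at 47.4 against 159 FPKM, Fosl1 at 15.8 against 50.5 FPKM and Atf3, far more abundant, at 642 against 1749.8 FPKM. Of 17 expressed clock genes 0 were higher in either layer, and their median of -0.46 turned to 0.02 with equal totals. Nr1d1 stood at 42 against 77 FPKM.

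Set beside the ear pairs, the layer differences of the back mostly ran in the same direction and were narrower on the epidermal side. In Wt/Wt ear 21.2% of 13812 genes were higher in dermis and 14.3% in epidermis, together 35.6%. In Wt/Koa ear the shares of 13923 genes were 20.4% and 12.7%, together 33%. A difference of at least 2 towards epidermis was seen in 613 genes in Wt/Wt ear against 63 in the back, short RNAs included in both. Across 14341 genes the difference of the back had a Pearson correlation of 0.844 and a Spearman correlation of 0.830 with that of Wt/Wt ear. Across 14329 genes these were 0.866 and 0.824 with Wt/Koa ear. Genes are not independent replicates, and the pairs share strain label, protocol and base composition, so these are descriptions.

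Of 2201 genes higher in dermis of the back that are not short RNAs, 1797 were also higher in dermis of Wt/Wt ear, 81.6% of the back and 62.4% of the ear genes. Of 1081 higher in epidermis, 805 were shared, 74.5% of the back and 42.0% of the ear genes. With Wt/Koa ear the shared genes numbered 1848 (84.0% and 66.0%) and 721 (66.7% and 42.9%). In all, 2426 genes passed the rule in the 3 pairs.

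A few genes had calls in opposite layers in back and ears, each from 1 library per layer and site. Both ear pairs had the opposite call in 8 of the 2426 genes. Acacb, an acetyl-CoA carboxylase, stood at 7.08 against 1.02 FPKM in the back, a difference of 2.00, against -1.59 and -1.18 in Wt/Wt and Wt/Koa ear. Ces2g, a carboxylesterase, stood at 17.2 against 7.85 FPKM, with 1.04 against -2.02 and -1.21. The other 6 were higher in epidermis of the back and in dermis of both ears. Ctgf, a matricellular growth factor, stood at 58.2 against 154 FPKM in the back and at 513 against 72.0 FPKM in Wt/Wt ear. Dio2, which activates thyroid hormone, stood at 10.5 against 36.5 FPKM in the back and 5.82 against 0.525 FPKM in Wt/Wt ear. Hoxa2 stood at 2.61 against 7.57 FPKM in the back. Nr4a2 stood at 9.95 against 23 FPKM in the back, and at the low levels of 2.47 against 0.574 FPKM in Wt/Wt ear and 3.40 against 0.802 FPKM in Wt/Koa ear. Fgf18 and Col8a2 were given above. With equal totals the epidermal calls of Hoxa2, Fgf18 and Col8a2 in the back were lost.

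The genes whose layer difference was furthest from both ears were of 2 kinds. More to dermis in the back were C6, a complement component, Gdf15, Mmp3, Ccr7, the homing receptor of migrating dendritic cells, Cxcl2 and Gal, the neuropeptide galanin. C6 stood at 30.5 against 0.407 FPKM, Ccr7 at 22 against 0.25 FPKM, Cxcl2 at 25.6 against 0.251 FPKM and Gal at 13.9 against 0.319 FPKM. In the 4 ear libraries C6, Gdf15, Ccr7 and Gal stayed under 1 FPKM. Mmp3 did not, since ear epidermis held 45 FPKM in Wt/Wt and 90.3 FPKM in Wt/Koa mice against 4.13 FPKM in the back.

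Less to dermis in the back were cartilage and other matrix genes that ear dermis held at high levels. Chad, Ucma, Cytl1 and Col9a1 are made by cartilage, which the ear has and the skin of the back lacks. Chad stood at 1.73 against 0.414 FPKM in the back and at 257 against 0.529 FPKM in Wt/Wt ear, and Ucma at 0.755 against 0.154 FPKM and 127 against 0.0852 FPKM. Cytl1 stood at 3.61 against 0.533 FPKM in the back, and Col9a1 below 1 FPKM in both layers. Col8a1 and Angptl7 were the other 2, with dermal levels of 8.43 and 11.6 FPKM in the back and 791 and 1311 FPKM in Wt/Wt ear.

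**Figure D5:**
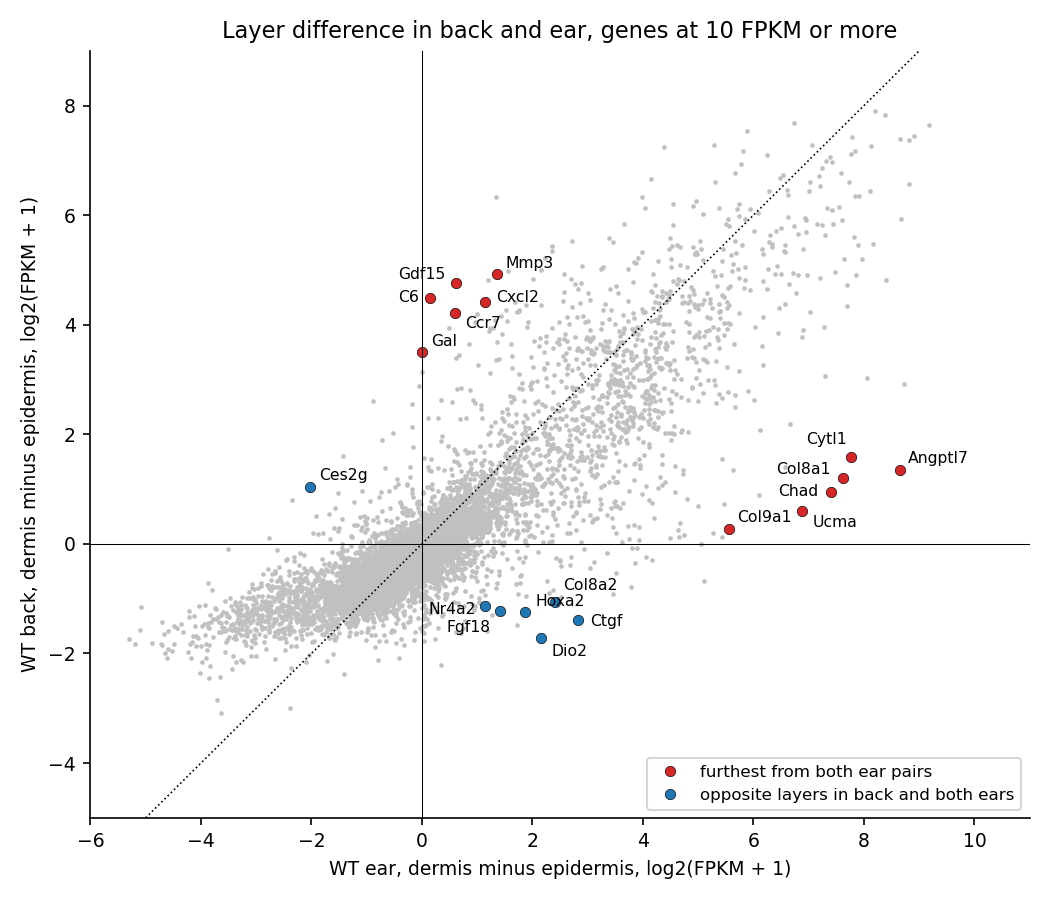
Layer difference in WT back (vertical axis) against that in WT ear (horizontal axis), both dermis minus epidermis in log2(FPKM + 1), for genes that are not short RNAs at 10 FPKM or more in any of the 4 libraries; the dotted line marks equal differences, red points the 12 genes furthest from both ear pairs and blue points genes of opposite layers in back and both ears (Acacb, under 10 FPKM, is not drawn). On the epidermal side the cloud is flatter than the dotted line, and Chad lies at 0.95 in the back against 7.40 in the ear.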

How the data were processed

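RNA of sorted skin cells was measured by sequencing in 7 libraries, of which the dorsal dermis and dorsal epidermis of WT mice are compared and the 4 ear libraries set beside them. The tail library, of dermis, has no epidermal partner and is used only in finding failed estimates. The authors deposited 1 table of FPKM values per gene symbol. The tools TopHat2 (version 2.0.13) and Cufflinks (version 2.2.1) and the builds mm9 and GRCm38 are named per the submitters' processing notes. Which build served which step, and the gene annotation, are not given in the sources used here. FPKM are scaled by the authors, so no count test was run.

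Columns were matched to samples by title, 2 of them misspelled. The table holds 22552 symbols, among them 730 short RNAs by symbol, and 2039 are at 0 throughout. A failed estimate was a gene at 0 in 1 of the 2 libraries compared but at 100 FPKM or more in another library of the same layer. The 3 collagen genes were set as failed by name as well. In all there were 42 failed symbols, and only the 3 collagen genes are not short RNAs. Differences were log2(FPKM + 1), with a pseudocount of 1, a filter of 1 FPKM in either library and a size rule of 1. Computation used Python 3.11.15, numpy 2.4.6, pandas 2.3.3 and scipy 1.17.1, and the size rule was tested on simulated data.

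Depth was recovered from the steps that whole fragments leave in FPKM under 0.5, by a line over 531 of 662 genes with a length offset of 213 nt. Ratios carry exact 95% intervals from fragments so estimated, which cover counting error only. Older symbols were matched through synonyms in RefSeq of GRCm38.p6, which holds 20004 of the symbols and is the source of promoters and positions.

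The comparison, its 64 gene lists and its rules were chosen with earlier results of these data known. The text names the 12 genes furthest apart in each direction at 10 FPKM or more, from each list up to 4 of those differing most, members that went against their list, called ligands and receptors, and 6 genes in each direction furthest from both ear pairs. Singled out after their values were seen were the genes so marked in the text and Bgn, Fmod, Timp2, Col4a2, Itga8, Lhx2, Fgfr2, Erbb2, Erbb3, Rspo3, Hes1, Heyl, Tyr, Mitf, Gapdh and the fat markers at low level. The alternatives were 2 other pseudocounts, 2 other filters, 2 scalings, the exclusion of short RNAs, 2 subtractions of RNA of the other layer and a shorter promoter window. A rescaled subtraction and promoter windows at the outermost listed start were added after the data were seen. A few members that the naming rule gave are not reported here.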

Additional observations from a re-analysis of the deposited data

Results flagged for a closer look

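These 7 genes are given because the sign of the layer difference in the back was opposite to that in both ear pairs, past the rule in all 3 and at 10 FPKM or more in 1 of the 6 libraries. With 1 library per layer and site the opposition was not tested. In the back, Dio2 differed by -1.71, Ctgf by -1.39, Hoxa2 by -1.25, Fgf18 by -1.23, Nr4a2 by -1.13 and Col8a2 by -1.06, all higher in epidermis. In Wt/Wt ear they differed by 2.16, 2.82, 1.86, 1.40, 1.14 and 2.41, and in Wt/Koa ear by 1.31, 2.43, 1.83, 1.35, 1.29 and 2.09, all higher in dermis. Ces2g differed by 1.04 in the back, higher in dermis, and by -2.02 and -1.21 in the ears.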

How the results depend on the processing

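No list median past the rule, and no called difference among the 778 named genes or list members, changed its sign under the alternatives run. For a called gene the outcome was fixed beforehand, so it is no support. The scalings moved differences by about 0.55 at most, less than the rule of 1, and the pseudocounts and subtractions keep the sign. The counts, 2232 higher in dermis and 1142 higher in epidermis, became 1182 and 697 with a pseudocount of 5. The epidermal count became 241 with equal totals, 588 with the median of ratios, 5866 after the epidermal share was subtracted from dermis, 5838 after both shares were subtracted, and 3479 after the subtraction added later, which keeps equal genes equal. Of 778 named genes or list members, 139 fell below the rule and 32 passed it anew with equal totals, 77 and 16 with the median of ratios, 124 and 0 with a pseudocount of 5, and 9 and 171 after plain subtraction. With a window of 100 bases before the start, TATAAA occurred in 6.29% of dermal, 8.23% of epidermal and 3.81% of all windows, and GGGCGG in 44.2%, 52.0% and 53.6%.

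No paired analysis was possible because each layer of the back has 1 library and no replicate numbers. Each layer would be empty without its library, so leaving 1 out gives no value. Depth limits low genes most. On the epidermal side, keratinocyte markers were also found in the dermal library, and the number of calls moved with the scaling. Why the epidermal differences were narrow was not tested.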
